A study of Mus musculus with 563 samples.

Results

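The cells described here are haematopoietic stem cells (HSCs) of old mice, divided by whether they carried messenger RNA of Vwf, the gene of von Willebrand factor. A cell was Vwf-positive at 20 CPM or more of Vwf (CPM, the reads of a gene scaled to a sum of 1000000 over the nuclear genes of the cell), and Vwf-negative where no read of the gene was found. Of 563 cells sequenced, young and old, 399 old cells were kept, for which the minimum was 50000 reads in nuclear genes and 1000 such genes read, and mitochondrial genes took no more than 20%. Among the 399 old cells, 332 were Vwf-positive, 28 were Vwf-negative and 39 lay between, with reads of Vwf below 20 CPM. All cells, young and old, came from bone marrow of Gfp-Lc3 mice, at steady state isolation, and therefore share a transgene that joins green fluorescent protein to the autophagy protein LC3. The old cells carry the group names LO, MID and HI, which the labels do not spell out; the GFP-LC3 level of each cell was recorded at sorting. The labels name no animal, so cells of a group are not replicates, each group counts as 1 sample and no p-value can be given.

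Von Willebrand factor is a large adhesive glycoprotein that tethers platelets to injured vessel walls, and is made by endothelial cells and megakaryocytes. In HSCs its gene marks cells known to be biased towards the platelet lineage, and the share of such cells is known to grow with age. Old HSCs are known to gain a set of surface and secreted products, among them clusterin, P-selectin and SLAMF1, the CD150 antigen used to sort HSCs.

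The Vwf-positive old cells had 50339 to 1064879 nuclear gene reads (median 292410), and the Vwf-negative old cells 74068 to 463596 (median 236820). After each cell was thinned to 100000 reads, leaving out 23 positive and 3 negative cells that were shallower, a median of 6890 genes was read in positive cells against 6522 in negative cells. Reads of the Y chromosome, at 20 or more, were found in 90.4% of positive and 78.6% of negative cells. HSC genes were read in both sets: Kit, the receptor of stem cell factor, in 332 of 332 and 28 of 28 cells, and Hlf, a transcription factor of HSCs, in 330 of 332 and 28 of 28.

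Vwf divided the old cells in a like way in LO, MID and HI. Of the kept LO cells 81.6% were positive (95% exact interval 74.1 to 87.7%). In MID cells 83.6% were positive (76.2 to 89.4%), and in HI cells 84.5% (77.1 to 90.3%), so the 3 intervals overlapped. Negative cells made up 8.09% of LO, 6.72% of MID and 6.20% of HI cells. The young cells kept held fewer positive cells, with 59 positive or 44% (35.5 to 52.9%), 38 between and 37 with no read, 27.6%. These intervals cover counting error only. Among positive old cells Vwf ran from 20.8 to 1967 CPM, with a median of 445 CPM in LO, 309 CPM in MID and 356 CPM in HI. The median of positive young cells was lower, 129.4 CPM. At the threshold, the lowest positive cells had 20.8 and 21.8 CPM and the highest cells below it 18.2 and 17.6 CPM. Few reads lie behind those values, since the cell at 21.8 CPM had 4 Vwf reads and the one at 18.2 CPM had 3. Thinning made more cells negative: 13.01% of LO, 11.02% of MID and 10.6% of HI cells had no Vwf read among 100000.

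**Figure D1:**
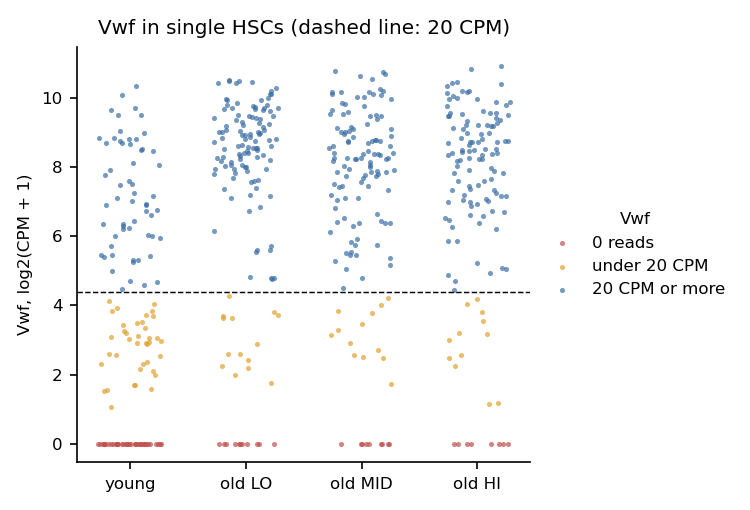
Vwf on the log2(CPM + 1) scale in each kept cell (points), by group; the dashed line is 20 CPM. Most old cells lie above the line, 332 of 399, against 44% of young cells.

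To compare the sets, reads were summed over positive and over negative cells within each group and each of the 2 deposited count files, and the difference on log2(CPM + 1) was taken within each of these 6 strata. Only 3 strata held at least 5 negative cells: LO (second file) with 57 positive and 7 negative cells, MID (first file) with 57 and 5, and HI (first file) with 58 and 5. The main comparison therefore rests on 172 positive and 17 negative cells. A gene counted as higher or lower where its mean difference was at least 1, with the same sign in every stratum, at least 20 CPM and reads in at least 20% of cells in the higher set, and no cell holding over 20% of that set's reads. By this rule 1219 of 10621 genes tested were higher in positive cells, 11.5%, and 10 were lower, 0.0942%. The limit on single cells is harder to meet over 17 cells than over 172; without it 1235 genes were higher and 1.36% were lower. The median difference of all genes tested was 0.40, so each value below is to be read against 0.40 and each count against 11.5%. With all 6 strata and 28 negative cells, 417 of 10644 genes were higher, 3.92%, and 3 were lower, 0.0282%. With the same sign asked of only 5 of the 6 strata, 1465 were higher and 3 lower. The median of all genes was 0.58 in the 6 strata, but 0.13 with levels averaged over them before the logarithm, where 734 genes were higher and 14 lower with no sign rule. The counts and medians thus depend on how the sums were handled and are not read as broadly higher expression in positive cells.

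Genes known to rise in old HSCs were on the higher side in Vwf-positive cells. Of the 42 members of this list, all of them tested, 15 were higher in positive cells and none lower; the median difference was 1.005. In the 6 strata 11 of 40 tested members were higher and the median was 1.43, against 0.58 for all genes. The list was drawn up with results on these cells known and Vwf itself belongs to the same family of age-linked genes, so its direction is no independent evidence. The other 27 members did not meet the rule, and their differences ran down to -0.56 for Sult1a1, a sulfotransferase.

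Clu, which encodes the secreted chaperone clusterin, had the widest gap in the share of cells with a read. In single cells Clu ran from 0 to 3100 CPM with a median of 275 CPM in the 332 positive cells, and from 0 to 1149 CPM with a median of 0 in the 28 negative cells. The ranges overlapped, since 12 negative cells had Clu reads and 5 of them more than 200 CPM. Its level in the 3 strata was 471 CPM in positive and 130 CPM in negative cells, a log2 difference of 2.04 (SD 1.12 over 3 strata). Clu was higher in all 6 strata, with differences of 1.02 and 1.44 in MID (first file) and HI (second file) at the low end; in MID (second file) all 4 negative cells had no Clu read. In thinned cells Clu was read in 79.6% of positive (74.7 to 83.96%) and 32% of negative cells (14.95 to 53.5%). This gap of 47.6 percentage points ranked 1 among 10644 genes, of which 36, or 0.338%, were more than 30 points higher in positive cells and 1, or 0.00939%, was as much lower. The 1 was Egr1, an immediate early transcription factor, read in 37.9% of positive and 68% of negative cells; its level showed no such order, with 65.9 CPM against 49.4 CPM over the 6 strata.

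Matn4, Slamf1 and Ehd3 also lay past 30 points. Matn4, which encodes the matrix protein matrilin-4, ran from 0 to 1230 CPM with a median of 76.7 CPM in positive cells, and from 0 to 230 CPM with a median of 0 in negative cells. Its level was 193 CPM against 18.6 CPM in the 3 strata, a difference of 3.59 (SD 1.17), and it was higher in all 6 strata. Matn4 was read in 69.6% of thinned positive and 32% of thinned negative cells; it overlaps Rbpjl in the annotation, and reads of overlapping genes cannot be told apart here. Slamf1 had 176 CPM against 42.7 CPM, a difference of 2.82 (SD 1.95), and was read in 77.99% and 44% of thinned cells. It was higher in 5 of 6 strata, the exception being MID (second file) at -0.14. Ehd3, an endocytic recycling protein, had 112.4 CPM against 28.2 CPM, a difference of 2.81 (SD 1.96), with reads in 65.4% and 32% of thinned cells. Matn4, Ehd3, Tm4sf1, Cavin2, Sbspon, Zg16, Nupr1, Cd27, Plek, Snap23, Ano2, Fgd5 and Hoxb5 were picked for mention after their values were seen.

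Further members were read in fewer cells but kept the order. Jam2, a junctional adhesion molecule, had 87.8 CPM in positive and 24.9 CPM in negative cells, a difference of 2.04, and was higher in all 6 strata. Tm4sf1, a membrane protein of the tetraspanin-like family, had 51.2 CPM against 18.6 CPM, a difference of 2.49 (SD 2.85), again higher in all 6 strata. Klrb1c, the NK1.1 lectin receptor, had 66.3 CPM against 1.59 CPM, the latter from 6 reads, a difference of 4.98 (SD 1.40). It did not hold in HI (second file), where the difference was -0.90. Sbspon, a secreted protein with a somatomedin B domain, had 74.99 CPM against 39.5 CPM in the 3 strata, below the rule at 0.95, but met it in the 6 strata with 74.2 CPM against 25.2 CPM. Members that stood at equal levels in both sets were Aldh1a1, the retinal dehydrogenase of HSCs, with 423 CPM against 485 CPM (-0.14), and Nupr1, a stress-response regulator, with 441 CPM against 427 CPM (0.23).

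**Figure D2:**
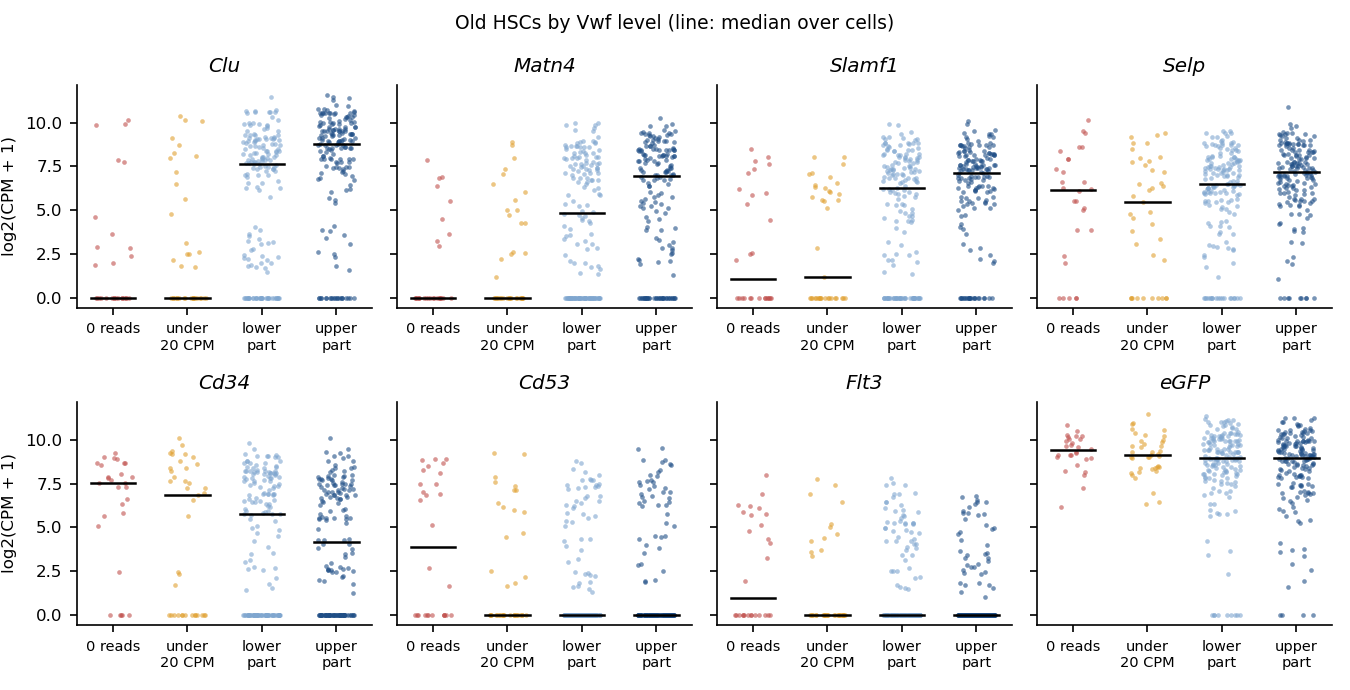
Log2(CPM + 1) of 8 genes or transgene entries in single old cells (points), grouped by Vwf: no read, under 20 CPM, and the positive cells below and above the median of their stratum (lower and upper part); the line is the median over cells. Clu, Matn4 and Slamf1 have medians at or near 0 in the first pair of columns and higher ones in both columns of positive cells, whereas Cd34 steps down from left to right.

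Of 9 genes looked up, 6 were in the RefSeq promoter table (GRCm38.p6), and the promoters of Matn4 and Slamf1 are printed because both genes were higher in Vwf-positive cells and their windows held a match to GATAA. The 250 bases before the first listed start of Matn4, chr2:164405161-164405410 on the minus strand, and before that of Slamf1, chr1:171766882-171767131 on the plus strand, read 5′ to 3′ with capitals for GATAA or TTATC, the core bound by GATA factors, and for GGAAG or CTTCC, a core bound by ETS factors.
Matn4: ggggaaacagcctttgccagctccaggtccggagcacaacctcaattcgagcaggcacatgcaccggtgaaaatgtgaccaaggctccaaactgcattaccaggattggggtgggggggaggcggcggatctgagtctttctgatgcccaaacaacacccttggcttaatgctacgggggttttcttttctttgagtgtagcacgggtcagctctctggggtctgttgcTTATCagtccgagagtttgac
Slamf1: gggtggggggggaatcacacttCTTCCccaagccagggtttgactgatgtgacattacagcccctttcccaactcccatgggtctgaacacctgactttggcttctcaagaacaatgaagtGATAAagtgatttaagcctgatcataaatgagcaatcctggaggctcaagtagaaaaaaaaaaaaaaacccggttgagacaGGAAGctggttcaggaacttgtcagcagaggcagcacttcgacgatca
Each window held 1 match to GATAA, counting both strands; windows of this length before 22.6% of 32851 starts did. GGAAG was matched 2 times in Slamf1 and not in this window of Matn4, and 64.1% of all windows hold it. The other windows searched held no GATAA: Ehd3 and Tm4sf1, also higher in positive cells, Cd34, Cd53 and a second listed start of Matn4. Their matches to GGAAG numbered 0 in Ehd3, 1 each in Tm4sf1 and Cd34, 2 in Cd53 and 3 at the second start of Matn4. A match is a run of letters and not evidence that a factor binds.

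**Figure D3:**
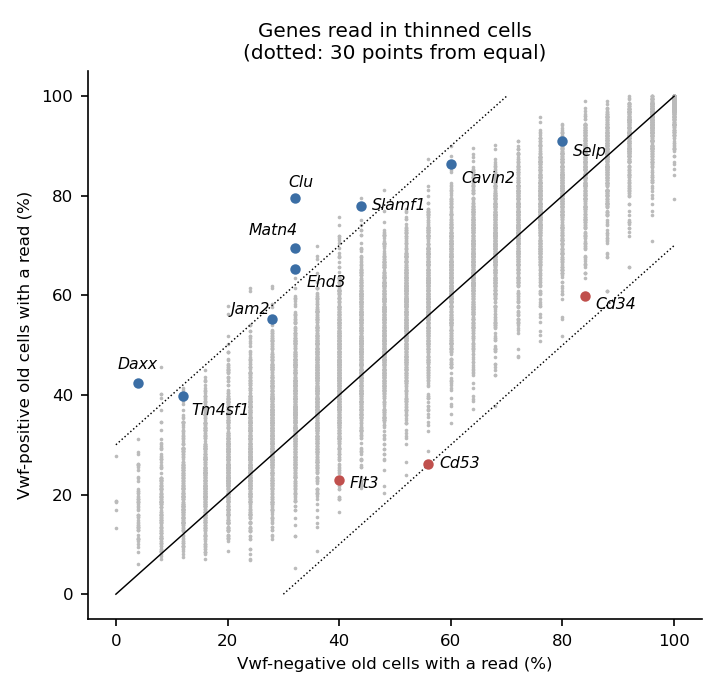
Share of thinned Vwf-positive old cells with a read of each tested gene against the share of Vwf-negative cells, 1 grey point per gene; dotted lines lie 30 percentage points from equal. Clu is highest above the diagonal (79.6% and 32%), and Cd34 and Cd53 lie below it.

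Genes of multipotent progenitors, the next stage after HSCs, had a median below that of all genes. Of 13 members 8 were tested; their median difference was -0.94 against 0.40 for all genes, 1 member was lower by the rule and none was higher. In the 6 strata the median was -0.47, again with 1 member lower. Cd34, a sialomucin that long-term HSCs of adult mice mostly lack, ran from 0 to 1121 CPM with a median of 34.7 CPM in positive cells, and from 0 to 614 CPM with a median of 184 CPM in negative cells. The ranges overlapped, and the level was 114.1 CPM against 192.5 CPM, a difference of -0.73 (SD 0.36) that did not reach the rule. Cd34 was lower in positive cells in 5 of 6 strata, with HI (second file) and its 3 negative cells the exception at 1.73. In thinned cells it was read in 59.9% of positive (54.2 to 65.4%) and 84% of negative cells (63.9 to 95.5%).

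Cd53, a leukocyte tetraspanin, was lower in positive cells in all 6 strata. Its median was 0 in positive and 19.5 CPM in negative cells, with highest values of 739 CPM and 472 CPM. Its level over the 6 strata was 35.5 CPM in positive and 136.6 CPM in negative cells, with differences from -0.91 in LO (second file) to -2.56 in HI (second file). Cd53 met the rule in the 6 strata and not in the 3, where the difference was -1.74 (SD 0.72) with the limit on single cells in force. It was read in 26.2% of thinned positive and 56% of thinned negative cells. Sox4, a transcription factor of progenitors, was lower by the rule, with 116.8 CPM against 232 CPM (-1.01, SD 0.58), but was near equal in HI (second file) at -0.01 and higher in LO (first file) at 0.53. Flt3, the receptor that marks lymphoid-primed progenitors, had 16.5 CPM against 42.6 CPM (-0.87, SD 1.36) and was lower in 4 of 6 strata. Cd27, a TNF receptor family member, had 343 CPM against 739 CPM (-1.04) and did not meet the rule. Plac8, the 1 tested member with a mean difference above 0, was at 1.51 in the 3 strata and 2.51 in the 6, at 13.2 CPM against 20.4 CPM in the 3 strata; it is named after its values were seen, and the mean difference over strata and the mean levels differ in direction.

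The 2 groups of genes could be read together in single cells; the genes combined here were chosen after their values were seen. Reads of all 3 of Clu, Matn4 and Slamf1 were found in 177 of 332 positive cells, 53.3%, in 4 of 39 cells under 20 CPM, 10.3%, and in 2 of 28 negative cells, 7.14%. Reads of at least 2 of Cd34, Flt3 and Cd53 were found in 35.5%, 46.2% and 71.4% of these cells. These shares are of cells at full depth, not thinned, and positive cells had the highest median depth of the sets. A negative cell was thus not a cell without any age-linked gene, since 22 of the 28 had reads of at least 1 of Clu, Matn4 and Slamf1.

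**Figure D4:**
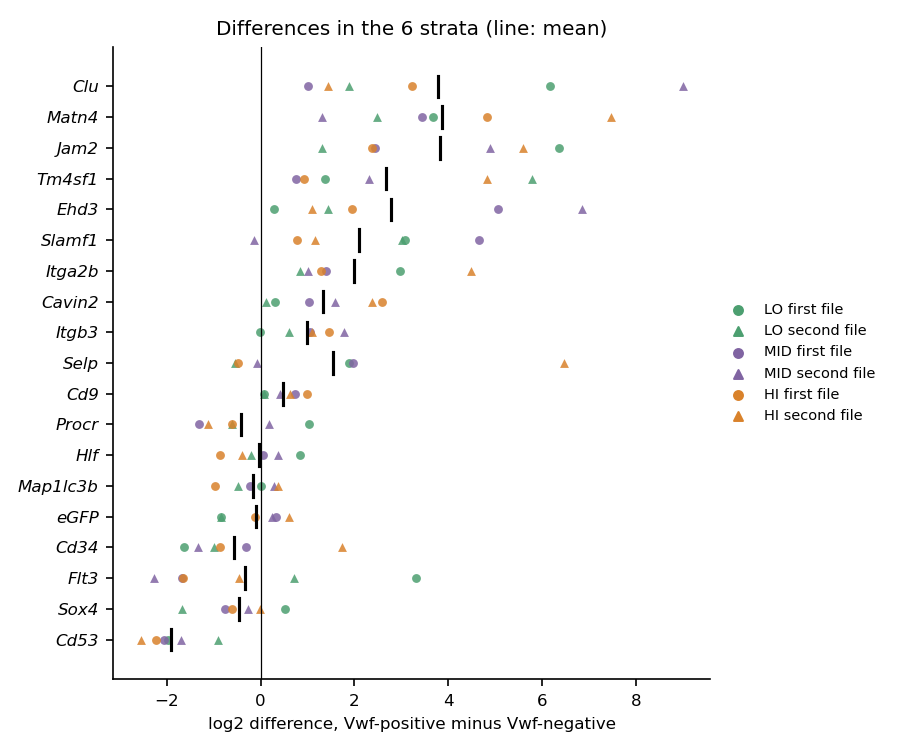
Log2 difference, Vwf-positive minus Vwf-negative old cells, of 19 genes or transgene entries in each of the 6 strata (colour for group, shape for count file); the bar is their mean. Differences of 5 or more come from strata whose 3 to 7 negative cells had few or no reads of the gene and depend on the added count of 1 CPM. All 6 points lie right of 0 for Clu, Matn4, Jam2, Tm4sf1, Ehd3, Itga2b, Cavin2 and Cd9, and left of 0 for Cd53.

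Platelet and megakaryocyte genes, of the lineage towards which Vwf-positive HSCs are known to be biased, had a median near that of all genes. Of 46 members 45 were found and 33 tested; 7 were higher, 21.2% against 11.5% of all genes, and none lower, and the median difference was 0.31 against 0.40. In the 6 strata 5 of 34 were higher, 14.7% against 3.92%, and the median was 0.46 against 0.58. Itga2b, the integrin chain CD41, had 196 CPM against 93.9 CPM (1.17, SD 0.30), and its partner Itgb3 360 CPM against 187 CPM (1.04, SD 0.42). Itga2b was higher in all 6 strata and Itgb3 in 5. Cavin2, a caveolar coat protein of platelets, had 205 CPM against 111.6 CPM (1.25, SD 1.25) and was higher in all 6 strata, with LO (second file) at only 0.13; among cells with at least 200000 reads, which left 1 stratum with 42 positive and 5 negative cells, its difference was -0.15. The others that met the rule were Clu, Gp5, Gfi1b and Plek. Gp5, a subunit of the platelet receptor of VWF, had 32.7 CPM against 10.4 CPM (2.36).

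Selp, which encodes P-selectin and is stored with VWF in platelet granules, did not meet the rule. It ran from 0 to 1931 CPM with a median of 125.8 CPM in positive cells and from 0 to 1123 CPM with a median of 69.8 CPM in negative cells. The level in the 3 strata was 205 CPM against 213 CPM, a difference of 0.33 (SD 1.43). In the 6 strata it was 221 CPM against 160 CPM, a mean difference of 1.54, with 3 of 6 strata higher. Pf4, platelet factor 4, had 18.98 CPM against 34.9 CPM in the 3 strata, while its mean difference over strata was 0.43 there and -0.39 in the 6, and was read in 21.4% of thinned positive and 44% of thinned negative cells. Among 37 genes of VWF storage, secretion and partners, 30 were tested and 3 were higher, Itga2b, Itgb3 and the membrane fusion protein gene Snap23, a share of 10.0%; the median difference was 0.37.

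The nearest genes to Vwf (chr6:125546774-125686679, plus strand, GRCm38) differed among themselves. Cd9, a tetraspanin gene 51.98 kb away, had 169 CPM in positive and 120.5 CPM in negative cells over the 6 strata, a difference of 0.48 against 0.58 for all genes, and was higher in all 6. Ano2, a chloride channel gene 3.74 kb away, was at 0.47 CPM and 0.14 CPM. Plekhg6, 166 kb away, was at 6.12 CPM and 1.71 CPM, a difference of 1.99, and Tnfrsf1a, a TNF receptor gene 184 kb away, at 146 CPM and 182 CPM, a difference of -0.20.

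HSC identity genes had a median below that of all genes tested. Of 38 members 36 were tested, 2 were higher (Slamf1 and Ctnnal1) and none lower, and the median difference was -0.01. Kit ran from 61.2 to 4533 CPM in positive and from 203 to 5185 CPM in negative cells, with 1618 CPM against 1696 CPM in the 3 strata (-0.06, SD 0.39). Hlf had 450 CPM against 555 CPM (-0.34, SD 0.47). Procr, the endothelial protein C receptor used to sort HSCs, had 196 CPM against 373 CPM (-0.85, SD 0.41). Procr was higher in positive cells in 2 of 6 strata, so its order was not shared. Gata2, a transcription factor of HSCs and megakaryocytes, had 430 CPM against 429 CPM.

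The transgene entries were close in level in both sets, and the median of the autophagy genes lay below that of all genes in the 3 strata only. The eGFP entry had 648 CPM in positive and 719 CPM in negative cells (-0.20, SD 0.59), and the rat Map1lc3b entry 609 CPM against 656 CPM (-0.16, SD 0.44). Mouse Map1lc3b, which overlaps Zcchc14, had 292 CPM against 435 CPM (-0.56, SD 0.38) in the 3 strata and a difference of -0.17 in the 6. Of the core autophagy genes, 39 were tested and 5 were higher, 12.8%, with a median of 0.08 against 0.40 for all genes. In the 6 strata 3 of 40 were higher, 7.5% against 3.92% of all genes, and the median was near that of all genes, 0.53 against 0.58. With levels averaged over the 6 strata before the logarithm it was 0.17 against 0.13.

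Cycling cells made up a higher share of positive than of negative cells, with overlapping intervals, and a lower share in the upper part of positive cells by Vwf. Cells with reads of at least 8 G2 and M phase genes made up 73 of 332 positive cells, 21.99% (17.7 to 26.8%), 8 of 39 under 20 CPM, 20.5%, and 2 of 28 negative cells, 7.14% (0.88 to 23.5%). Thinning left 16.8%, 12.8% and 8%. The gap lay mostly in HI, where 44.04% of positive (34.5 to 53.9%) and 12.5% of negative cells (0.32 to 52.7%) were cycling. In MID the shares were 11.6% and 0 of 9 cells, and in LO 10.8% and 9.09%, where thinning turned the order to 5.05% against 10%. The 17 negative cells of the main comparison held no cycling cell, which allows a share of up to 19.5% by the exact interval. In that comparison 15 of 29 tested G2 and M phase genes and 22 of 30 S phase genes were higher. In the 6 strata the counts were 12 of 34 and 2 of 31. There the negative cells include 2 cycling ones and the same sign is asked of 6 strata, with 3.92% of all genes higher against 11.5%. Without cycling cells 1 of 5 tested G2 and M phase genes and 6 of 24 S phase genes were higher in the 3 strata, beside 1084 of 10542 genes. Cells were called cycling by these same G2 and M phase genes, and leaving them out took 34 of the 172 positive cells and no negative cell. A fall in the counts of G2 and M phase genes was thus built into that step. What lowered the other counts was not tested. With levels averaged over the 6 strata before the logarithm, the median difference of 34 G2 and M phase genes was 1.55 against 0.13 for all genes. Mki67, the proliferation marker, had 352 CPM against 181 CPM over the 6 strata. Of the 28 negative cells 5 were above 200 CPM and the highest, an HI cell, was at 2343 CPM. Without cycling cells its difference in the 3 strata was -1.68, against 2.95 with them. A fall was built into that step, since Mki67 is among the genes by which cells were called cycling and only positive cells were left out.

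When positive cells were split at the median Vwf of their stratum, 25 of 10719 genes were higher in the upper part, 0.233%, and 51 lower, 0.476%. The lower genes included 13 of the 34 G2 and M phase genes, and all 34 had differences below 0, with a median of -1.73. Cycling cells were 28 of 168 in the upper part, 16.7% (11.4 to 23.2%), and 45 of 164 in the lower part, 27.4% (20.8 to 34.9%). In HI cells the shares were 36.4% and 51.9%, in LO 7.14% and 14.5%, and in MID 7.02% and 16.4%, the same order in each group with overlapping intervals. Genes higher in the upper part included Cldn5, a tight junction protein, with 332 CPM against 106.1 CPM (2.42), Sbspon with 105.97 CPM against 37.1 CPM (1.62), Zg16, a secreted lectin, with 75.7 CPM against 26.3 CPM (1.39), and Klrb1c with 107.8 CPM against 47.4 CPM (1.30). Each was higher in the upper part of all 6 strata. Clu had 618 CPM against 329 CPM (0.93), also in all 6, and Cd34 had 94.1 CPM against 148 CPM (-0.70), lower in 5 of 6. The list known to rise with age had 6 members higher in the upper part and a median of 0.48.

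**Figure D5:**
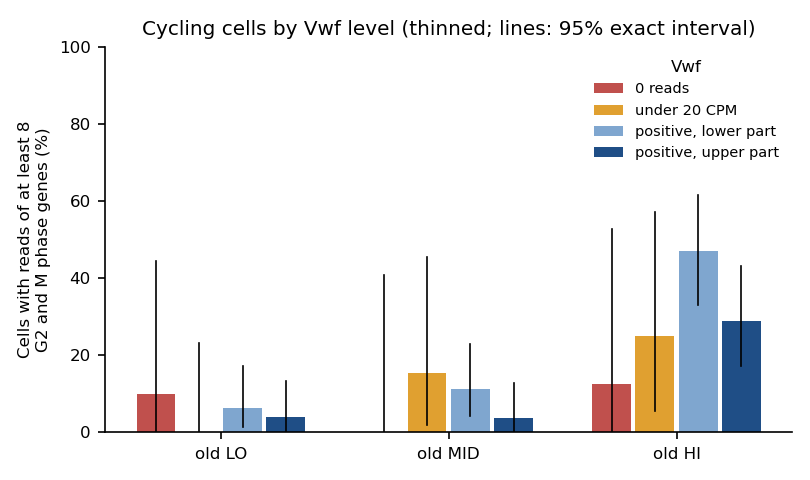
Share of thinned old cells with reads of at least 8 G2 and M phase genes (bars) by group and Vwf level, with 95% exact intervals (lines) that cover counting error only. In each group the upper part of positive cells is below the lower part, 28.8% against 47.1% in HI; a column with a line and no bar is at 0.

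The 12 genes with the highest differences were mostly cell division and DNA repair genes that were almost unread in the 17 negative cells. Daxx, a chaperone of histone H3.3, had no read there and was read in 86 of 172 positive cells. Its level of 48.7 CPM was 67.5-fold what 3 reads over the negative cells would give. Such a fold is no lower bound, since these genes were taken for their highest differences. Over all 28 negative cells Daxx was read in 1, and in thinned cells it ranked 2 by share, with 42.4% against 4%. Its share was 35.9% in cells under 20 CPM. Leo1, a subunit of the PAF1 transcription elongation complex, also had no read in the 17 cells, 72.4-fold by the same measure. It was, however, read in 6 of the 28, and after thinning in 24% of negative against 42.4% of positive cells. Among the others were Cdca8, Ccna2, Knl1, Nkiras2, Dxo, Spc24, Tpx2, Ube2t and Pkmyt1.

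The 10 genes lower in positive cells were Slc38a7, Med9, Tti1, Mmgt2, Slc2a1, R3hcc1, Mndal, Sppl2a, Sox4 and Cd72. Slc2a1, the glucose transporter GLUT1, had 58.98 CPM against 134.8 CPM (-1.18), and Cd72, a lectin of B cells, 51.3 CPM against 105.6 CPM (-1.001). None of the 10 met the rule in the 6 strata.

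Cells under 20 CPM and young cells were not part of this contrast and are given beside it. Against the 39 old cells under 20 CPM, 248 of 10666 genes were higher in positive cells, 2.33%, and 7 lower, 0.0656%; the positive cells are the same as before. Of the 42 genes known to rise with age 41 were tested, 10 were higher and the median was 0.90 against 0.35 for all genes. Clu had 125.03 CPM in these cells and Matn4 47.8 CPM, each lower than in positive cells in all 6 strata. Slamf1 had 58.4 CPM, also lower in all 6. Cd53 had 40.7 CPM here against 34.9 CPM in positive cells, while its mean difference over strata was 0.22, in the other direction. Cd34 had 231 CPM, a difference of -0.77. For Itga2b the difference was 0.14, against 1.997 for cells without a Vwf read in the same 6 strata.

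Young positive and negative cells differed at 424 of 10586 genes in the higher direction, 4.01%, and at 0.992% in the lower. Clu was read in 30 of 59 young positive and 5 of 37 young negative cells, with 1931 and 5 reads, and Cavin2 in 22 of 59 and 1 of 37, with 409 and 1 reads. The ratio of pooled levels of Cavin2 was 227, with a counting interval of 40.5 to 8984. That interval treats each read as independent and leaves out the spread between cells, so it is too narrow. Old negative cells had more of both than young negative cells, 97.99 CPM of Clu and 96.996 CPM of Cavin2 over the 6 strata. Young positive cells had 107.9 CPM of Clu and 23.4 CPM of Cavin2. Only 5 of the 28 old negative cells had more than 200 CPM of Clu. Matn4 had 6.59 CPM and 5.94 CPM in young cells, low in both. Cd34 was 196 CPM against 373 CPM (-0.91) and Cd53 13.2 CPM against 44.4 CPM (-1.58), neither meeting the rule; Sox4 was lower by it, 164 CPM against 350 CPM (-1.21). Of the 36 HSC identity genes tested, 8 were higher in young positive cells. Among them were Slamf1 (1.02), Procr (1.42), Fgd5 (1.41), a guanine exchange factor, and Hoxb5 (1.10), a homeobox factor of long-term HSCs. In old cells 2 of 36 were. The young count asks the same sign of 2 strata, with 4.01% of all genes higher. The old count asks it of 3 with fewer negative cells, with 11.5% higher, so the counts are not like for like. Whether these differences between ages exceed error was not tested. In young cells Y-linked reads were found in 87.1% of positive and 90% of negative cells of the first file and in no cell of the second. Sex and file therefore cannot be told apart there, but each difference is taken within a file.

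Markers of other cell types were compared as well. No old cell in any set had 3 or more erythroid, macrophage, B cell, T and NK cell, or mast cell and basophil markers at 20 CPM. Neutrophil and monocyte markers reached 3 in 4 of 332 positive and 1 of 28 negative cells, with median summed levels of 358 CPM and 494 CPM. Single markers such as Hba-a1, Hba-a2, Cd79a and Cd3e were at 0 in negative cells, which is easier over 28 cells than over 332. Median summed levels of erythroid markers were 5.55 CPM in positive and 15.5 CPM in negative cells. Those of B cell markers were 3.60 CPM and 7.82 CPM, and of macrophage markers 0 and 3.07 CPM. T and NK cell markers had the other order, 1.96 CPM and 0. Endothelial markers, many of which HSCs also express, reached 3 in 320 of 332 positive and 27 of 28 negative cells, with summed levels of 116.4 to 5691 CPM and 44.7 to 2604 CPM; Cdh5 and Flt4 were at 0 in negative cells. Mature megakaryocyte and platelet markers reached 3 in 62.3% of positive and 67.9% of negative cells, with Ppbp, Gp6, Tubb1 and Itga2 at 0 in the latter. Dendritic cell markers reached 3 in 78 of 332 positive cells, 23.5%, and 11 of 28 negative cells, 39.3%, with summed levels of 0 to 15787 CPM and 40.5 to 12378 CPM. Their part in the lower progenitor genes was not tested. Cd74, the invariant chain of MHC class II, had 646 CPM against 2047 CPM (-1.24, SD 1.44), with LO (second file) in the other direction at 0.42.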

How the data were processed

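Per the labels' protocols, bone marrow HSCs of old and young Gfp-Lc3 mice were sorted singly into wells, and libraries followed Smart-seq2 with modifications. The deposited values are raw read counts per gene entry and cell, without molecular identifiers, in 2 files. DESeq2, featureCounts 2.0.0 of Subread, STAR 2.7.3a and the mm10 build appear in the submitters' processing notes without their roles; the annotation and strand setting are not given in the sources used here. Rows that name no gene held 59.2% to 93.7% of a kept cell's reads (median 76.4%) and were left out, as were 92 spike-in entries. Of 46078 gene entries, 45229 matched GENCODE vM21, which gave symbols and positions.

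CPM were taken over nuclear gene reads. Counts were summed per Vwf status within group and file, scaled by TMM (edgeR 4.0.16, R 4.3.3) and compared as log2(CPM + 1); other steps used Python 3.11.15. Genes tested had a mean of at least 10 CPM and a read in at least 10% of cells; Vwf was left out. No test was run, since the labels name no animals and cells are not replicates. The script was tested on simulated data. Doublets were not called; cells were sorted into single wells.

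The text names the 12 genes with the highest and up to 12 with the lowest differences that met the size rule, up to 2 at each end of each of 39 gene lists, and 20 genes and the transgene entries named in all cases. The members and lists were chosen with earlier results of these data known. Planned with 6 strata, the main comparison has 3, because the others held under 5 negative cells. Some items are not reported here.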

Additional observations from a re-analysis of the deposited data

How the results depend on the processing

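No paired analysis was possible because the results come from no test and cell numbers only name cells. Leaving out cells with endothelial or megakaryocyte markers kept 6 positive and 1 negative cells and gave no value, and the same sign in 5 of 6 strata cannot be asked of 3. Strata were lost under several settings, which also eases the rule of the same sign: 1 stratum was left in cells with at least 200000 reads (5 negative cells), without cells with other markers (6) and in the second file alone (7), and 2 in thinned cells, in cells with Y-linked reads and in the first file alone. These values reflect both changes. All 6 strata, merged files, levels averaged before the logarithm and no limit on single cells were chosen after seeing the data. Of the shares called and list medians, 80 values under alternatives kept close to the main value and 51 moved; the causes were not tested.

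The share of genes higher in Vwf-positive old cells, 11.5% (1219 genes), moved to 6.23% (325 genes) with a stricter level filter of 50 CPM and 25% of cells, 2.3% (245) in thinned cells with status called anew, 1.4% (150) with negative cells taken as all under 20 CPM, 18.3% (1928) in cells with Y-linked reads, 19.4% (2048) in the first file alone, 3.92% (417) in all 6 strata, 7.1% (756) with files merged and 6.9% (734) with levels averaged first. Leaving out a stratum in turn gave 15.5% to 19.4%. The share of genes lower in Vwf-positive old cells, 0.0942% (10 genes), moved to 0.349% (37) with median-ratio size factors, 0.207% (22) without composition factors, 0.0471% (5) with a pseudocount of 10 CPM, 1.05% by the mean of log2 CPM of single cells, 0.0281% (3) in thinned cells with status called anew, 0% in cells with at least 200000 reads, without cells with other markers and in the second file alone, 0.057% (6) in cells with Y-linked reads, 0.00946% (1) in the first file alone, 0.65% (69) at a difference of at least 0.58, 0.0282% (3) in all 6 strata also at the same sign in 5, and 1.36% with no limit on single cells. Leaving out a stratum gave 0.00946% to 0.123%.

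For genes known to rise in old HSCs, the median difference of 1.005 moved to 0.77 with median-ratio size factors, 0.92 without composition factors, 0.78 with a pseudocount of 10 CPM, 0.59 with the stricter level filter, 0.85 by the mean of CPM and 0.79 by the mean of log2 CPM of single cells, 0.81 in thinned cells, 1.19 in cells with at least 200000 reads, 0.73 with negative cells under 20 CPM, 1.101 without cycling cells, 0.87 without cells with other markers, 1.105 in cells with Y-linked reads, 0.93 in the first file alone and with files merged, 1.43 in all 6 strata and 0.81 with levels averaged first; leaving out a stratum gave 0.85 to 0.99. For platelet and megakaryocyte genes, the median difference of 0.31 moved to 0.57 in the first file alone, and leaving out a stratum gave 0.33 to 0.57. For multipotent progenitor genes, the median difference of -0.94 moved to -1.59 by the mean of log2 CPM of single cells, -0.42 in thinned cells with status called anew, -0.67 in cells with at least 200000 reads, -0.47 in all 6 strata and -0.65 with levels averaged first; leaving out a stratum gave -1.07 to -0.66.

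Single genes changed sign in 10 cases. Tti1 was at 0.41 in thinned cells with status called anew, 0.10 with negative cells under 20 CPM and 0.20 in all 6 strata, Med9 at 0.26 in all 6 strata and Slc38a7 at 0.046 with negative cells under 20 CPM. In the 1 stratum left by at least 200000 reads Sppl2a was at 0.039 and Cavin2 at -0.15. Without cycling cells Mki67 was at -1.68 and Aurkb at -0.28, both among the genes by which cells were called cycling, so a fall was built in. Without cells with other markers Fhl1 was at -0.15.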

Other observations

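Other gene lists had medians on both sides of that of all genes tested, 0.40 in the 3 strata, where 11.5% of genes were higher. Among ribosome biogenesis and Myc genes 9 of 30 tested were higher in Vwf-positive old cells and the median difference was 0.57. In the 6 strata 3 were higher and the median was 0.45, below the 0.58 of all genes. Nuclear oxidative phosphorylation genes had 4 of 43 higher and a median of 0.49. Antigen presentation genes had none of 18 higher or lower and a median of -0.01, and interferon response genes 2 of 31 higher and a median of -0.02. Lymphoid priming genes, with 12 tested, had a median of -0.08 and no member past the rule. Myeloid priming genes, with 11 tested, had a median of 0.42 and no member past the rule. Immediate early genes, with 18 tested, had 1 higher and a median of -0.11. Several lists changed side in the 6 strata, so their place is not stable. Nuclear oxidative phosphorylation genes, at 0.30, and myeloid priming genes, at 0.24, were there below the 0.58 of all genes. Interferon response genes, at 0.69, and immediate early genes, at 0.74, were above it. Antigen presentation genes (-0.07) and lymphoid priming genes (0.16) stayed below.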
